A study of Salmo salar with 64 samples.

Results

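The gene apoeb encodes an apolipoprotein E of Atlantic salmon. Its messenger RNA was followed here in 64 RNA-seq libraries of maturing females. The gene was found by its NCBI gene number, and of the 81574 rows of the count table, 1 was NCBI gene 106577506's own. It was chosen by its measured change in the ovary between time points, so its ovary values are given as a description with no test. All fish were female brood stock, about 3 years past fertilization, from a single management group held in tanks, and no genotype or strain is given for them. The later groups T2, T3 and T4 were sampled at intervals of 2 weeks after day length had been extended to trigger maturation, and T1 fish were taken ahead of that switch. Brain, pituitary, ovary and liver were taken from 4 fish at each time point, which gives 16 groups of 4 libraries. Day length, days under the regime and season changed together from T1 to T4, so they cannot be told apart.

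Apolipoprotein E is a secreted protein that sits on the surface of lipoprotein particles and binds receptors of the LDL receptor family, through which cells take up cholesterol and other lipids. In mammals it is made in large amounts by the liver, by macrophages and by astrocytes of the brain, and in zebrafish apoeb is widely used as a marker of microglia and is expressed in the yolk syncytial layer. In egg-laying vertebrates the growing oocyte takes up lipid-rich yolk precursors from blood through a receptor of the same family. Salmon carry many genes in near-identical copies left by a genome duplication, and only uniquely placed reads were counted. Levels of genes with close copies are therefore uncertain, and apoeb is compared below with itself across libraries, not with other genes.

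Libraries held 18.6 to 30.6 M (1e6) counts in ovary, 17.5 to 51.9 M in brain, 23.0 to 29.0 M in pituitary and 20.6 to 34.9 M in liver. Levels are given as CPM, the counts of a gene scaled to a library total of 1 M, and apoeb had 41 to 60990 counts per library. Marker genes of liver, pituitary, ovary and brain, summed by list, were highest in the tissue of their label. Single members could differ, as foxl3 of the ovary somatic list was at 0 in ovary and reached 1.72 CPM in brain. Summed liver markers were 71662 to 112918 CPM in liver against 43.1 to 766 CPM elsewhere. Summed pituitary markers were 165040 to 255890 CPM in pituitary (with pou1f1 at 0). They were 112 to 575 CPM in ovary, 159 to 493 CPM in brain and 42.4 to 602 CPM in liver. Summed oocyte markers were 1552 to 2173 CPM in ovary. The source of marker counts outside the labelled tissue was not tested. In brain the summed brain markers ranged from 851 to 10757 CPM, and brain was left out of the study's own analysis because its replicates were inconsistent. The paper attributes that to mixed tissue of several brain regions, which were not sampled alike through the experiment. In bulk tissue, fewer cells of a type and less RNA per cell cannot be told apart.

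Ovary apoeb was low in every library of T1 and T2 and then present at a high level in some fish only. The T1 ovaries had 1.34, 5.14, 2.00 and 4.56 CPM. The T2 ovaries had 2.49, 7.76, 3.85 and 5.76 CPM. The T3 ovaries had 508, 7.80, 464 and 8.78 CPM in replicates 1 to 4. At T3 the libraries therefore fell on either side of a wide gap, with replicates 1 and 3 high and replicates 2 and 4 just above the highest of T2. The T4 ovaries had 17.2, 1284, 9.48 and 2113 CPM, with replicates 2 and 4 high. Across the 16 ovary libraries nothing lay between 17.2 and 464 CPM, a 27.0-fold step with 12 libraries below and 4 above it. The highest ovary library was 1575-fold above the lowest.

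**Figure D1:**
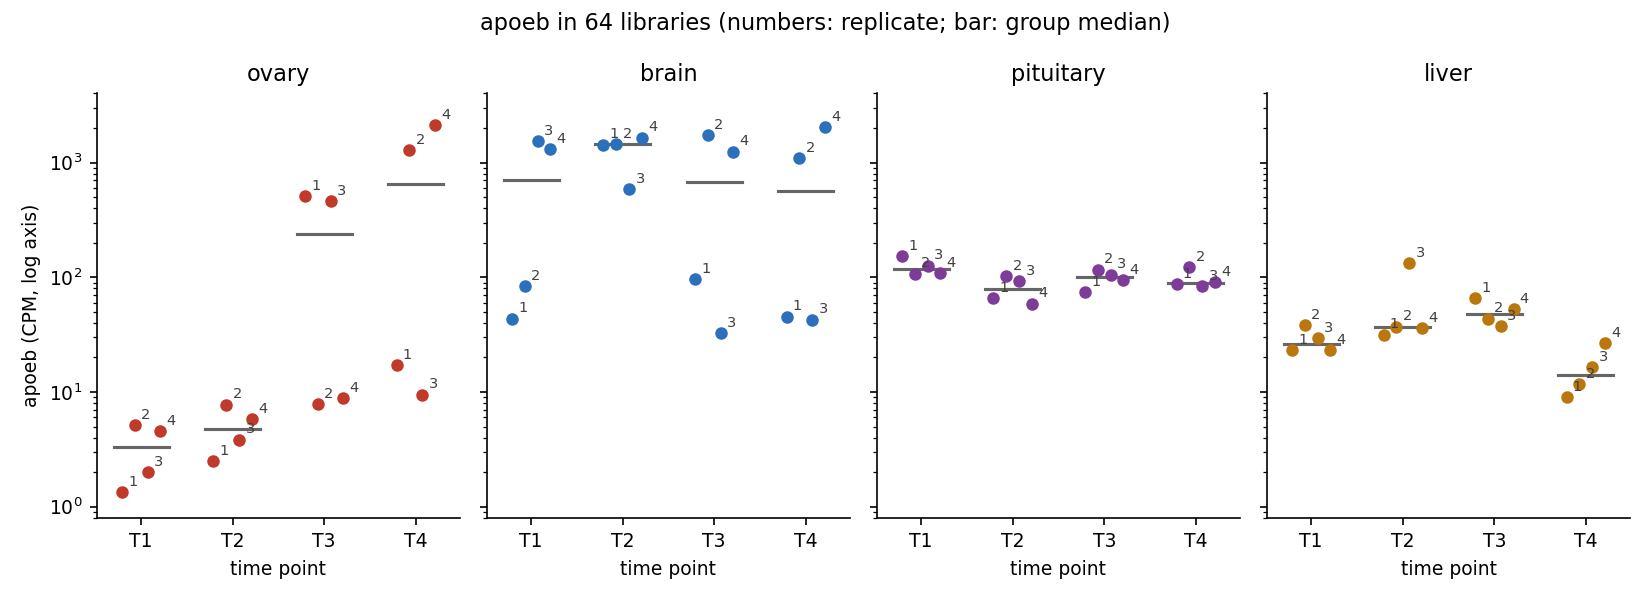
apoeb in all 64 libraries, as CPM on a log axis, with 1 panel per tissue and the time points T1 to T4 along each panel. Each number is the replicate number of a library and each bar is the median of 4 libraries. Ovary libraries span 1.34 to 2113 CPM and brain libraries fall into a low set of 6 and a high set of 10, while pituitary stays within 59.1 to 154 CPM.

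Group means followed the split within groups. Ovary apoeb averaged 3.26 ± 1.87 CPM at T1, 4.96 ± 2.30 at T2, 247 ± 276 at T3 and 856 ± 1030 at T4 (SD, n = 4 each), so at T3 and T4 the spread was larger than the mean. The edgeR estimate of the log2 fold change over T1 was 0.55 (SE 0.46) at T2, 6.21 (SE 1.45) at T3 and 8.05 (SE 1.80) at T4. The T2 libraries overlapped those of T1. All 4 libraries of T3 and all 4 of T4 lay above all 4 of T1, which was also so for 10.6% and 17.3% of the genes tested at those times, and since the gene was picked for this contrast nothing is read from it. The low libraries of T4, at 17.2 and 9.48 CPM, were themselves above every T1 and T2 ovary.

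The 8 genes whose ovary profile was most like that of apoeb were ranked by the root-mean-square difference of their log2(CPM + 1) values, each centred on its own mean, over the 16 ovary libraries and 37346 genes. The nearest were LOC100196333 (0.415 log2 units), LOC106566399 (0.731) and LOC106605689 (0.959), none of which has a name in the annotation used here. Then came LOC106609985 (1.68), LOC106567247 (1.72), apoc1 (1.76), g0s2 (1.78) and LOC106579149 (1.79). For scale, apoeb lay 3.21 log2 units from a flat profile by the same measure, so the nearest 3 genes traced most of its pattern and the others part of it. In mammals apoC-I, the product of the gene apoc1 is named after, is a small apolipoprotein that moves between lipoprotein particles, and G0S2 is an inhibitor of the triglyceride lipase ATGL.

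The same 4 ovaries were high for these genes. LOC100196333 had 230 and 133 CPM in replicates 1 and 3 of T3 and 392 and 547 CPM in replicates 2 and 4 of T4, against 0.656 to 6.73 CPM in the other 12 ovaries. LOC106566399 had 78.1, 145, 150 and 245 CPM in those libraries in the same order, against 0.131 to 2.75 CPM. LOC106605689 had 428, 455, 976 and 1705 CPM, against 11.3 to 36.6 CPM. The apolipoprotein gene apoc1 reached 364, 274, 619 and 937 CPM, against 33.3 to 65.2 CPM. The gap in these 4 genes follows from their being ranked nearest to apoeb over these same 16 libraries, so it is a description and not a finding. The gene tfa, which encodes the iron carrier transferrin and was picked after its values were seen from a list of 13 liver markers whose other 12 members did not split, reached 244, 139, 315 and 601 CPM, against 45.5 to 84.0 CPM. Other genes of blood lipoproteins did not share the split: apoa2 was 22.9 to 33.6 CPM in the 4 ovaries and 23.6 to 33.0 CPM in the others.

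**Figure D2:**
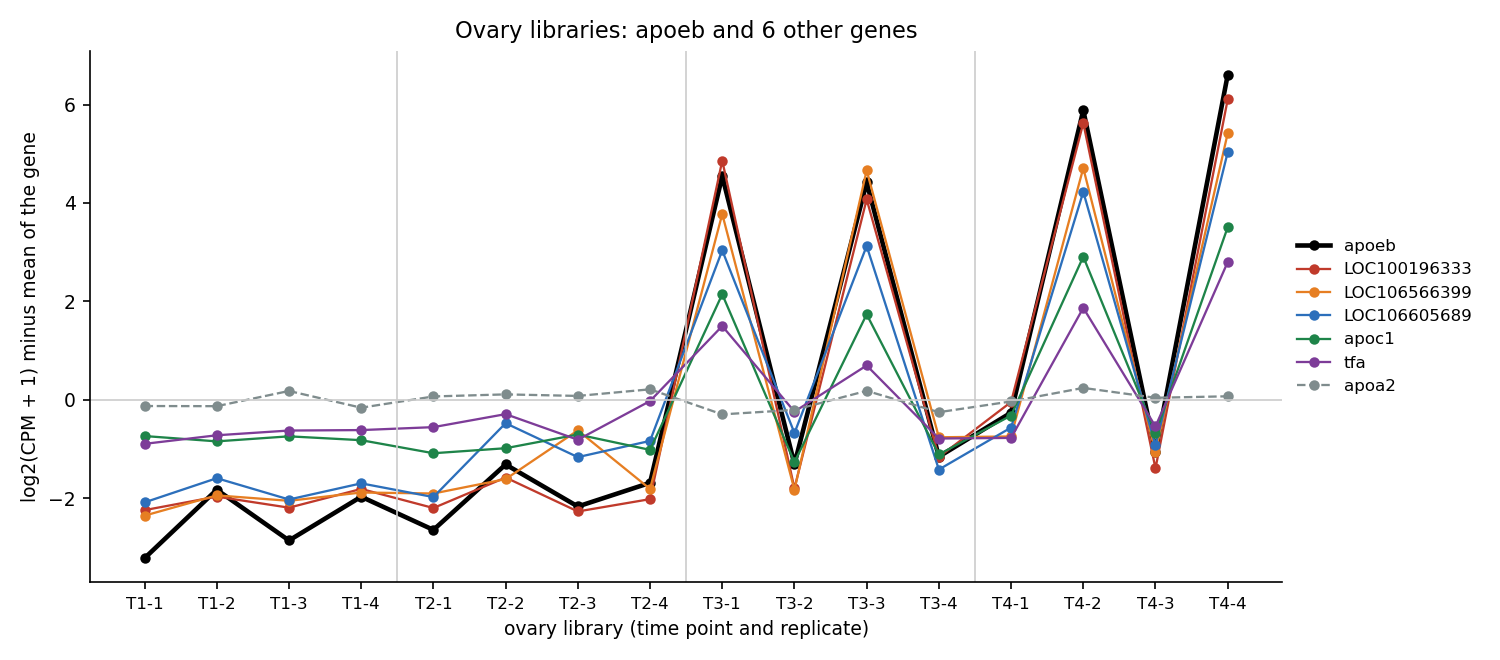
log2(CPM + 1) minus the mean of each gene over the 16 ovary libraries, from T1 replicate 1 to T4 replicate 4, for apoeb, LOC100196333, LOC106566399, LOC106605689, apoc1, tfa (picked after its values were seen) and apoa2 (dashed). The first 6 genes peak in replicates 1 and 3 of T3 and replicates 2 and 4 of T4, and apoa2 stays flat at 22.9 to 33.6 CPM.

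Liver markers did not move with this pattern as a group. Their sum, which includes tfa, was 375 and 283 CPM in replicates 1 and 3 of T3 and 501 and 759 CPM in replicates 2 and 4 of T4, against 170 to 232 CPM in the other 12 ovaries. Only tfa was apart between those libraries and the rest, and the other 12 of 13 members overlapped. The summed macrophage and microglia markers, 15 rows of which aif1 and c1qc were at 0 in ovary, were 258 to 409 CPM at T1. They were 966, 913, 883 and 404 CPM in replicates 1 to 4 of T3 and 677, 1527, 773 and 3110 CPM in replicates 1 to 4 of T4. The macrophage sums were 883 to 3110 CPM in the 4 high ovaries and 258 to 913 CPM in the other 12. They overlapped through 1 library alone, ovary T3 replicate 2, with 913 CPM of these markers and 7.80 CPM of apoeb. Of the members ptprc was apart, at 39.6 to 165 CPM in the 4 high ovaries and 3.37 to 26.3 CPM in the rest. All other members overlapped, with slc7a7 (24.5 to 33.9 and 26.2 to 47.8 CPM) partly the other way. Summed oocyte markers were 1552 to 2169 CPM in the 4 high ovaries and 1830 to 2173 CPM in the others. How many of all genes were apart between the 4 high ovaries and the other 12 was not counted. Which markers were apart or overlapped is therefore a description only. The part of any cell type in the ovary values was not tested.

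Position sets some of these genes side by side. In the Ssal_v3.1 assembly, which is not the build of the counts and is used here for gene order only, apoeb on chromosome ssa02 lies between LOC106577505 and apoc1, with apoa2 and apoc2 next. LOC100196333 and LOC106605689 are themselves next to each other on chromosome ssa05. Of the genes at apoeb's side, apoc1 shared the split in ovary, while LOC106577505 stayed at 0.510 to 2.75 CPM and apoa2 stayed flat. Being neighbours therefore did not go with a shared ovary profile for all of them.

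In brain, apoeb had the highest group median of the 16 groups, at T2, and again fell into separate sets of libraries. The T1 brains had 43.7, 83.6, 1534 and 1314 CPM. The T2 brains had 1431, 1444, 585 and 1653 CPM. The T3 brains had 96.2, 1730, 32.5 and 1247 CPM. The T4 brains had 45.3, 1096, 42.8 and 2040 CPM, so every group but T2 held 2 low and 2 high libraries. None lay between 96.2 and 585 CPM, a 6.08-fold step, and the low libraries were replicates 1 and 2 of T1 and replicates 1 and 3 of T3 and of T4.

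No difference between time points was detectable against that spread. Brain apoeb averaged 744 ± 791 CPM at T1, 1278 ± 473 at T2, 776 ± 846 at T3 and 806 ± 961 at T4 (SD, n = 4 each). The log2 fold changes over T1 were 0.70 (SE 1.06), 0.00 (SE 1.45) and 0.11 (SE 1.53), with adjusted p of 0.744, 1.0 and 0.999 in edgeR's quasi-likelihood test with Benjamini-Hochberg adjustment over all genes tested. The approximate 95% interval at T2 ran from -1.88 to 3.28, at T3 from -3.54 to 3.54 and at T4 from -3.64 to 3.87, so log2 changes of up to about that size could not be seen. The gene was picked with results of these libraries known, which holds for every test of it here. At an adjusted p below 0.05 and a log2 fold change beyond 1 in either direction, the rule for a call throughout, edgeR called 0% of genes in each brain comparison. At an unadjusted p below 0.05 it found 15%, 2.52% and 5.07% of genes at T2, T3 and T4, DESeq2 called 643, 37 and 239 genes and edgeR's exact test 57, 1 and 17. The signs at T3 and T4 turned with a single library, from -0.79 to 0.77 and from -1.07 to 0.88 over the libraries left out in turn.

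The high brain libraries differed from the low ones in many genes. LOC106605689 had 188, 124, 5515 and 4255 CPM at T1, 5947, 6780, 3926 and 6870 CPM at T2, 324, 7246, 121 and 5473 CPM at T3, and 196, 3736, 276 and 9094 CPM at T4, and so split as apoeb did. LOC100196333, the gene nearest to apoeb in ovary, did not split in brain, where it was 8.82 to 65.8 CPM in the 6 low libraries and 9.63 to 29.4 CPM in the 10 high ones. The gene apoc1 ran partly the other way, at 503 to 967 CPM in the 6 and 220 to 574 CPM in the 10. The first principal component of brain, computed without apoeb over 32669 genes, carried 55.8% of the variance and was -114 to -84.6 in the 6 low libraries and 12.6 to 159 in the 10 high ones.

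Over all 64 libraries the genes most like apoeb were fxyd9b (1.51 log2 units), LOC106575566 (1.52), mmp14b (1.54), LOC106604359 (1.61), b3gnt7 (1.65), LOC106607752 (1.68), LOC106608581 (1.69) and postna (1.70), where apoeb itself lay 2.60 from flat. In brain fxyd9b, of the family of FXYD proteins that regulate the sodium pump, was 512 to 1313 CPM in the 10 high libraries and 49.0 to 78.1 CPM in the 6 low ones. The gene postna, for the matrix protein periostin, was 51.7 to 211 CPM and 1.91 to 6.85 CPM in the same sets. The transcription factor genes foxd1 and tbx15, picked after their values were seen because they rank near apoeb over the 16 brains (0.371 and 0.456 log2 units), were 21.7 to 46.2 CPM and 15.3 to 48.1 CPM in the high set. In the low set foxd1 was 0.0486 to 0.712 CPM and tbx15 was 0 to 0.285 CPM. These genes were ranked near apoeb over libraries that include the same brains, so their split in brain is a description and not a finding. In ovary fxyd9b overlapped, at 29.4 to 66.3 CPM in the 4 high ovaries and 14.5 to 43.5 CPM in the other 12. So did postna, at 0.353 to 2.35 and 0.196 to 2.47 CPM. Of the genes listed for all 64 libraries, only LOC106575566 and mmp14b were apart in ovary.

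**Figure D3:**
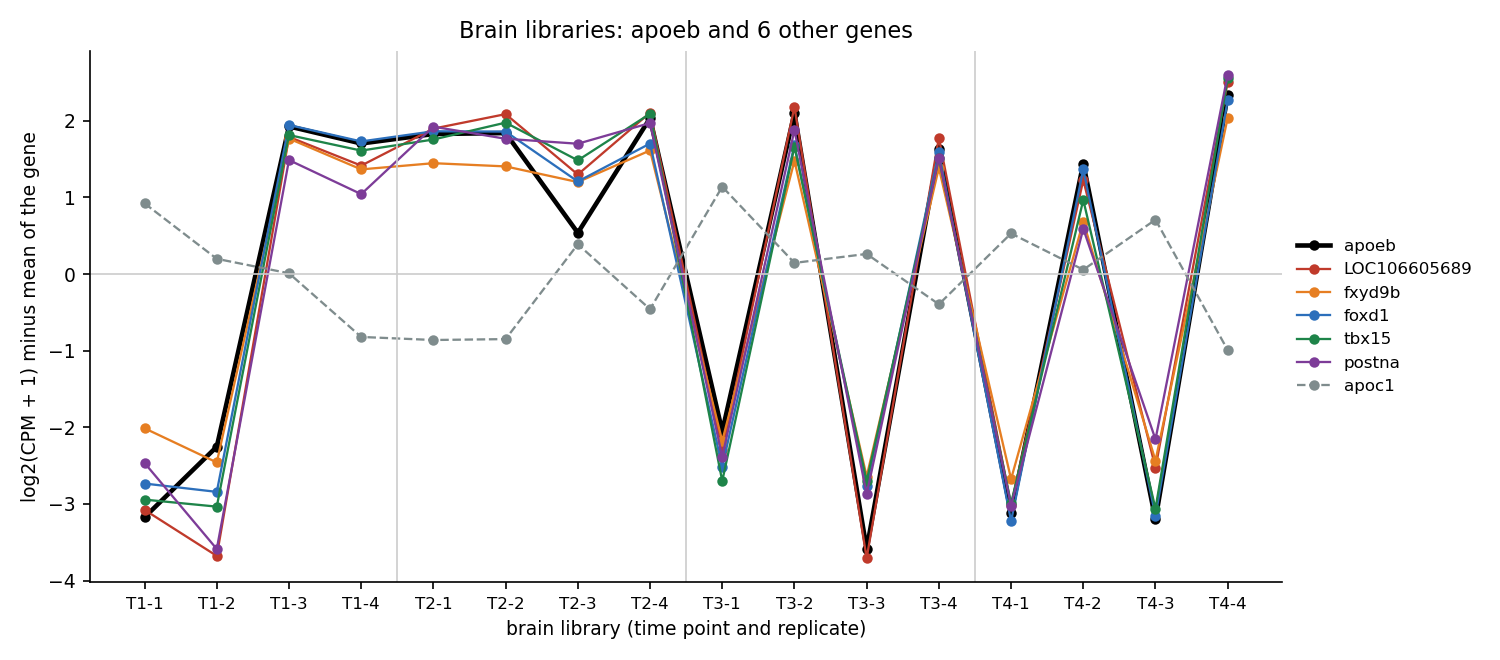
log2(CPM + 1) minus the mean of each gene over the 16 brain libraries, from T1 replicate 1 to T4 replicate 4, for apoeb, LOC106605689, fxyd9b, foxd1, tbx15, postna and apoc1 (dashed). The first 6 genes are low together in replicates 1 and 2 of T1 and replicates 1 and 3 of T3 and T4, and apoc1 does not follow them.

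Marker sums in brain moved with the split as well. The summed blood markers, all from alas2 since hba was at 0, were 63.3 to 300 CPM in the 10 libraries with high apoeb and 11.3 to 27.6 CPM in the 6 with low apoeb. The lymphocyte sum was 8.28 to 20.1 CPM in the high set and 1.70 to 2.71 CPM in the low set. The macrophage and microglia sum overlapped, at 1013 to 1949 CPM in the high set and 599 to 1139 CPM in the low set, with aif1 and c1qc at 0 and cd74a as its most abundant member (783 to 1576 CPM and 420 to 865 CPM). Of its members mpeg1.1, a gene of macrophages, was apart, at 9.75 to 40.2 CPM in the high set and 0.289 to 2.15 CPM in the low set, as were cd68 (54.0 to 114 and 28.5 to 47.7 CPM), hexb (23.4 to 49.0 and 11.8 to 19.3 CPM) and ptprc (33.1 to 90.4 and 13.9 to 29.6 CPM). All other members overlapped. Of these, aif1l (8.30 to 26.4 and 24.1 to 43.5 CPM) and slc7a7 (7.21 to 33.6 and 13.6 to 58.7 CPM) ran partly the other way. The brain markers overlapped too, and ran partly the other way, at 851 to 6901 CPM in the high set and 5100 to 10757 CPM in the low set. Of their members only elavl3 was apart, at 23.8 to 136 CPM in the high set and 167 to 372 CPM in the low set. The liver marker sum overlapped (267 to 766 and 43.1 to 385 CPM). Of its members only rbp4 was apart (176 to 580 and 1.41 to 15.3 CPM). How many of all genes were apart between the same sets was not counted. Being apart is therefore a description here, and is not read as particular to any marker. The part of all these markers in the apoeb values of brain, and that of the brain regions sampled, was not tested.

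If the replicate number marks the same fish in each tissue, which the labels do not state, the ovary and brain splits did not coincide. At T3 the fish numbered 1 and 3 were high in ovary, with 508 and 464 CPM, and low in brain, with 96.2 and 32.5 CPM. At T4 the fish numbered 2 and 4 were high in both, with 1284 and 2113 CPM in ovary and 1096 and 2040 CPM in brain. At T2, all 4 brains were high and all 4 ovaries low.

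In pituitary, apoeb varied least, by 2.60-fold between the lowest and highest of 16 libraries, and was lower after the light change. The T1 pituitaries had 154, 108, 126 and 109 CPM. The T2 pituitaries had 66.0, 103, 92.0 and 59.1 CPM, all below the lowest of T1, as were 2.21% of the genes tested. The T3 pituitaries had 74.8, 117, 106 and 95.1 CPM, and those of T4 had 86.7, 123, 84.1 and 91.1 CPM, with 3 of 4 libraries at each time below all of T1. Means were 80.0 ± 20.8 CPM at T2, 98.1 ± 17.9 at T3 and 96.2 ± 18.0 at T4, against 124 ± 21.5 CPM at T1 (SD, n = 4 each).

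The pituitary differences were under the fold needed for a call, with approximate 95% intervals of -1.30 to -0.46 at T2, -0.98 to -0.14 for T3 and -0.99 to -0.26 for T4. The log2 fold changes were -0.88 (SE 0.17), -0.56 (SE 0.17) and -0.62 (SE 0.15) at T2, T3 and T4, with adjusted p of 0.0271, 0.0969 and 0.0429 in edgeR's quasi-likelihood test with Benjamini-Hochberg adjustment. The rule called 1.53%, 1.06% and 1.79% of genes in these comparisons and apoeb in none. The adjusted p moved across 0.05 with the alternatives, with a range of 7.03e-05 to 0.0871 for T2, 0.0265 to 0.240 for T3 and 0.00207 to 0.160 for T4, while the sign held in all 15 alternatives at each time. LOC106605689 was also lower, with log2 fold changes of -0.77, -0.51 and -0.98 and adjusted p of 0.0442, 0.110 and 0.0265, and LOC100196333 fell by 1.31 at T4 (adjusted p 0.0230, edgeR). Both were picked from the 8 genes nearest to apoeb in ovary, of which 7 were tested in pituitary. Of those 7, 5 were below T1 at T2, 7 at T3 and 3 at T4, where 4 were above. Their median log2 fold changes were -0.72, -0.45 and 0.01.

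In liver, apoeb was higher at T2 and T3 and lower at T4 than at T1. The T1 livers had 23.0, 38.3, 29.6 and 23.2 CPM. The T2 livers had 31.6, 37.2, 132 and 36.2 CPM, and only replicate 3 was above all of T1. The T3 livers had 66.2, 43.6, 37.3 and 52.5 CPM, 3 of them above all of T1. The T4 livers had 9.07, 11.7, 16.4 and 26.6 CPM, 3 of them below all of T1. Means were 59.3 ± 48.8 CPM at T2, 49.9 ± 12.5 at T3 and 15.9 ± 7.71 at T4, against 28.5 ± 7.20 CPM at T1 (SD, n = 4 each).

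The log2 fold changes in liver were 0.95 (SE 0.49; adjusted p 0.163) at T2, 0.80 (SE 0.25; adjusted p 0.0454) at T3 and -1.01 (SE 0.36; adjusted p 0.0560) at T4 in edgeR's quasi-likelihood test with Benjamini-Hochberg adjustment, where the rule called 15%, 7.65% and 11.3% of genes. The approximate 95% intervals were -0.25 to 2.15, 0.197 to 1.403 and -1.88 to -0.13. None of the 3 met both thresholds, so apoeb was called in 0 of the 9 comparisons tested outside ovary. The T2 value rested on replicate 3, without which it was 0.15. The T4 difference was called by DESeq2 (-1.03, adjusted p 0.0219), by edgeR's exact test (-1.01, adjusted p 0.0230) and without T4 replicate 4 (-1.44, adjusted p 0.00534). The libraries of T4 replicates 1 and 2, the lowest in apoeb, also held 2425 and 2357 CPM of macrophage markers and 84.4 and 83.9 CPM of lymphocyte markers. T4 replicates 3 and 4 had 564 and 517 CPM and 6.94 and 6.38 CPM of the same markers, and the T1 livers had 490 to 655 CPM of macrophage markers. Without T4 replicates 1 and 2 the log2 fold change was -0.51 (adjusted p 0.237), and the part of those cells was not tested.

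The T2 liver with 132 CPM of apoeb was also high in some neighbouring genes, picked after their values were seen, but not in apoc1 and apoa2 directly beside apoeb. It had 19338 CPM of apoc1, against 16139 to 19857 CPM in the other T2 livers, and 20012 CPM of apoa2, against 18360 to 19824 CPM. LOC106577505, next to apoeb, had 3426 CPM there, against 289 to 674 CPM in the other T2 livers. LOC106605692, near LOC106605689 on ssa05, had 2831 CPM there against 805 to 1092 CPM, and LOC106605689 had 3758 CPM against 1186 to 1519 CPM. Over the whole time course LOC106605689 rose in liver at T3, with a log2 fold change of 1.23 (adjusted p 0.00945, edgeR), at 2521 ± 516 CPM at T3 against 1066 ± 325 CPM at T1 (SD, n = 4 each). At T4, where apoeb was lower, LOC106605689 was 0.51 above T1 on the log2 scale (adjusted p 0.133, edgeR).

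**Figure D4:**
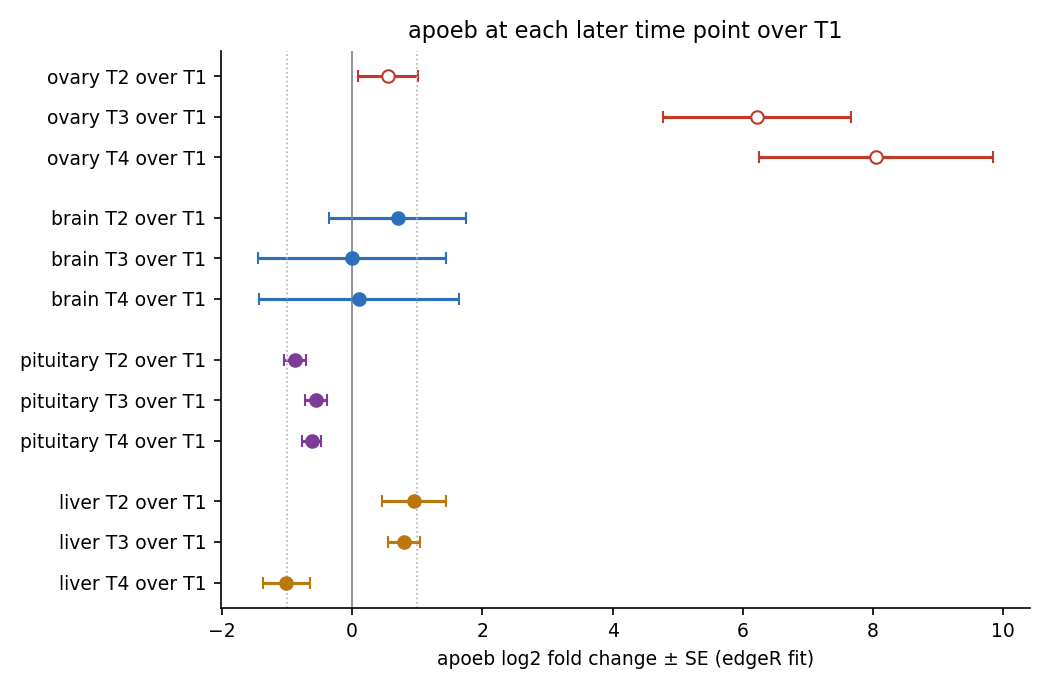
log2 fold change of apoeb over T1 with its SE in the 12 comparisons of 4 later libraries against 4 of T1. Open circles mark ovary, where no test is given, and dotted lines mark the fold threshold of 1. Ovary stands at 6.21 and 8.05 at T3 and T4, pituitary lies below 0 at all 3 times, and liver is above 0 at T2 and T3 and below 0 at T4.

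Ordered by median, the 16 groups ran from brain T2 (1438 CPM), brain T1 (699), brain T3 (672), ovary T4 (650), brain T4 (571) and ovary T3 (236), through the pituitary groups (118 at T1, 100.4 at T3, 88.9 at T4 and 79.0 at T2), to liver T3 (48.1), T2 (36.7), T1 (26.4) and T4 (14.1), with ovary T2 (4.81) and T1 (3.28) last. Each group overlapped its neighbour in this order except liver T4 and ovary T2. The liver means alone moved by more than 1 SD with scaling. Normalised over all 64 libraries by TMM, the liver means were 60.8 CPM at T1, 114 at T2, 108 at T3 and 29.2 at T4. The T3 livers were then at 74.3 to 154 CPM. Their TMM median of 101 CPM was above those of pituitary T3 (90.4), T4 (86.6) and T2 (75.6). The order of liver and pituitary groups therefore depended on the scaling.

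The other apolipoprotein genes named as such by symbol did not share the pattern of apoeb across tissues. The annotation names 14 of them, and genes with only a LOC number could not be on the list. In a comparison, 10 to 12 passed the filter on low counts, and the list was chosen with results of these libraries known. In ovary at T4 the rule called 3 of 11 higher and none lower, where 10.6% of all genes were called higher and 11.1% in either direction, and the median log2 fold change of the list was 0.26 against 0.01 for all genes tested. The 3 were apoc1 (3.17, adjusted p 0.0335), apol (2.22, adjusted p 0.0161) and apod (2.11, adjusted p 0.0186), by edgeR's quasi-likelihood test. In mammals apoD is a lipocalin that carries small hydrophobic molecules. Ovary apod was 2.96, 10.9, 4.58 and 10.1 CPM at T4 against 2.19, 1.81, 1.49 and 1.06 CPM at T1, and its 2 highest libraries were those with high apoeb. The apoc1 call did not hold in 6 of the 8 leave-one-out fits, with the replicate block or with limma, and without T1 replicate 1 none of the 3 was called.

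In ovary at T3, where 3.61% of genes were called and 3.51% called higher, only apol of 10 was (1.52, adjusted p 0.0411, edgeR). Its call held in 1 of the 8 leave-one-out fits and not with the replicate block, limma or the fit of all 16 ovaries. At T2 none of 10 was called, where 0.972% of genes were. Of the genes for structural proteins of blood lipoproteins, ovary apoa1 had log2 fold changes of -0.36 (SE 0.18), -0.30 (SE 0.15) and -0.14 (SE 0.19) at T2, T3 and T4, and apobb.1 had -0.19 (SE 0.15), 0.02 (SE 0.16) and -0.11 (SE 0.14), none of them called.

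Those pituitary apolipoprotein genes that were called, at T2 and T3, moved opposite to apoeb. Called or not, 9 of 11 were above T1 and 2 below at T2, and 8 and 3 at T3. At T4, 4 of 10 were above and 6 below, with a median of -0.19. At T2 the rule called 4 of 11 higher and none lower in edgeR's test. On the log2 scale apoba rose by 2.04 (adjusted p 0.0130) and apobb.1 by 1.88 (adjusted p 0.00994). The others were apoa2, by 1.69 (adjusted p 0.00232), and apoa1, by 1.29 (adjusted p 0.0189). The median of the list was 0.93 against 0.00 for all genes, of which 1.21% were called higher. Pituitary apoa2, in mammals a protein of high-density lipoprotein, was 52.1, 43.3, 39.9 and 41.5 CPM at T2 and 27.1, 29.4, 25.1 and 32.0 CPM at T3, against 10.4, 13.3, 13.3 and 10.6 CPM at T1. At T3 apobb.1 (1.36, adjusted p 0.0250) and apoa2 (1.03, adjusted p 0.00188) rose, where 0.819% of genes were called higher, and at T4 none of 10 was called. Summed liver markers, which include apoa1 and apobb.1, moved with them in pituitary, with a T2 range of 202 to 249 CPM, a T3 range of 124 to 157 CPM and a T4 range of 54.4 to 77.9 CPM, against 54.8 to 70.0 CPM at T1, and their part was not tested. The T2 calls of apoa2 and apobb.1 held in all 15 alternatives, while apoa1 was no longer called in 4 of the 8 leave-one-out fits. At T3 the apobb.1 call held in 4 of the 8 and not with the replicate block, and the apoa2 call held in 6 of the 8.

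**Figure D5:**
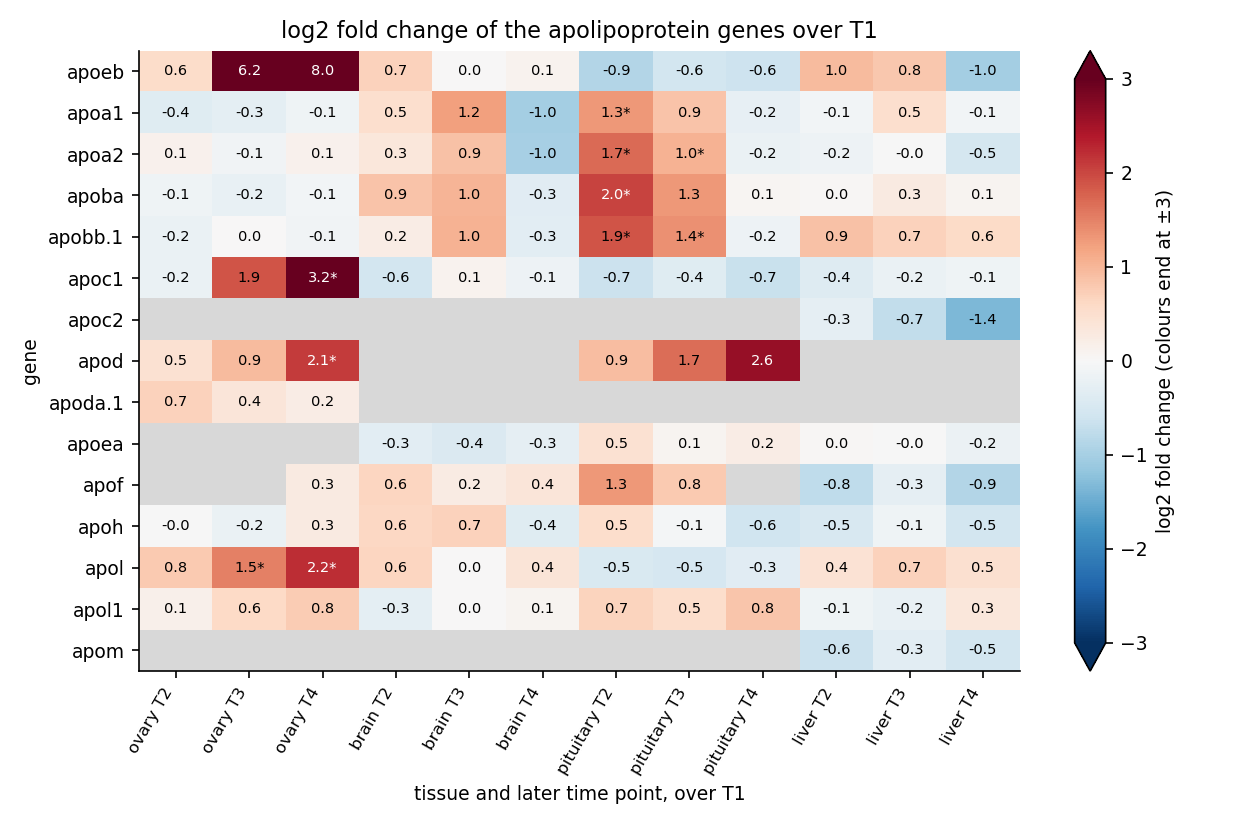
log2 fold change over T1 of apoeb and 14 other apolipoprotein genes in the 12 comparisons, as a colour scale that ends at -3 and 3. An asterisk marks a call at an adjusted p below 0.05 and a log2 fold change beyond 1 in either direction, grey marks genes not tested, and ovary apoeb carries no test. Calls stand in ovary at T3 (1) and T4 (3) and in pituitary at T2 (4) and T3 (2), and in no brain or liver comparison.

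In liver, the main source of most apolipoproteins in vertebrates, none of 12 was called at T2, T3 or T4, where 15%, 7.65% and 11.3% of all genes were. An apolipoprotein gene was called at T4 in 4 of 9 alternatives and 3 of 8 leave-one-out fits, and at T2 in 1 of 7 and 1 of 8. The gene apobb.1 passed on p alone. It had 7486 ± 300 CPM at T2 against 3680 ± 567 CPM at T1 (SD, n = 4 each), a log2 fold change of 0.89 (adjusted p 0.00287, edgeR) that stayed under the fold threshold. Liver apoc1, beside apoeb on the chromosome, had 22341 ± 1028 CPM at T4 and 21585 ± 3332 CPM at T1, a log2 fold change of -0.14 (adjusted p 0.588, edgeR). In brain none of 10 was called. The other gene named after apolipoprotein E, apoea, had at most 1.71 CPM in brain and 0.0354 to 0.922 CPM in ovary.

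Of 10 receptor genes of lipoproteins matched by symbol, 7 were tested in ovary. At T4 stab2 (1.36, adjusted p 0.0164), stab1 (1.64, adjusted p 0.0239) and lrp2a (1.04, adjusted p 0.0274) were called higher and none lower in edgeR's test. At T3 stab1 (1.49) and lrp2a (1.05) were called higher (adjusted p 0.0382 and 0.0375). These are 3 of 7 and 2 of 7, where 10.6% and 3.51% of all genes were called higher. The list did not rise as a whole at T4, with 3 of 7 above T1, 4 below and a median log2 fold change of -0.02. At T3, 5 were above and 2 below, with a median of 0.38. Both T3 calls held in 1 of 8 leave-one-out fits and not with the replicate block or limma. At T4 the call held in 3 of 8 such fits for stab1 and lrp2a and in 7 of 8 for stab2, which failed without T1 replicate 1. With DESeq2 or limma lrp2a was not called at T4. Macrophage and microglia markers moved in the same comparisons, with 4 of 11 called higher at T3 and 7 of 11 at T4 (median log2 fold changes 1.37 and 2.28), and their part was not tested. In mammals stabilins are scavenger receptors of endothelial cells and macrophages, and megalin, which lrp2a is named after, takes up lipoproteins and vitamin carriers. Ovary vldlr, named after the receptor of very-low-density lipoprotein, was 722 ± 76.8 CPM at T4 against 893 ± 52.9 CPM at T1 (SD, n = 4 each), a log2 fold change of -0.33 (adjusted p 0.0335) under the fold threshold. In liver vldlr fell by 1.74 at T3 (adjusted p 0.00112) and by 1.84 at T4 (adjusted p 0.00872), at 0.888 ± 0.029 CPM at T3 and 0.928 ± 0.538 at T4 against 2.95 ± 0.719 CPM at T1, and lrp2b rose by 1.84 at T2 (adjusted p 0.00651). With 1 of 8 called at T2, 1 of 8 at T3 and 1 of 7 at T4, the liver share was near that of all genes (15%, 7.65% and 11.3%). Liver lrp2b was 1.18 ± 0.417 CPM at T2 against 0.296 ± 0.117 CPM at T1 (SD, n = 4 each). Its call held in 8 of 8 leave-one-out fits but not with limma or in the fit of all 16 livers. The T4 call of vldlr was lost without T4 replicates 1 and 2, and no receptor gene was called in pituitary or brain.

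Of 14 rows of genes that handle cholesterol, ch25h, which makes 25-hydroxycholesterol, rose in ovary at T2, T3 and T4, by 1.76, 2.03 and 2.75 on the log2 scale (adjusted p 0.0348, 0.0298 and 0.0144, edgeR), to 0.427 to 1.84 CPM in later ovaries. The T2 call of ch25h held in 0 of 8 leave-one-out fits and not with DESeq2, the block or limma, and the T3 call held in 1 of 8 and not with the block or limma, while at T4 it held in all 8 but not with limma. In ovary 1 of 13 was called at T2 and at T3 and 2 of 13 at T4, against 0.972%, 3.61% and 11.1% of all genes. In T1 ovaries ch25h was 0.118 to 0.201 CPM, below all later ovaries, in the 4 with high apoeb and in the other 8 alike. The lowest of these, 0.118 CPM, was 3 counts in T1 replicate 3, so the ch25h fold changes start from a few counts. The gene pltp, for a phospholipid transfer protein, rose by 1.39 in ovary at T4 (adjusted p 0.0341) and fell by 1.06 in pituitary at T2 (adjusted p 0.0189), calls that held in 2 of 8 and 3 of 8 leave-one-out fits and not with limma. Pituitary lcat, for the enzyme that esterifies cholesterol on lipoproteins, rose by 2.39 at T2 (adjusted p 0.00336) and 1.98 at T3 (adjusted p 0.0197), the T3 call not holding with the block or limma or without T1 replicate 1 or 2. In pituitary 2 of 11 of the list were called at T2 and 1 of 11 at T3, against 1.53% and 1.06% of all genes. Liver markers rose in the same pituitary comparisons, with 11 of 11 called higher at T2 (median log2 fold change 1.72) and 4 of 11 at T3 (median 0.92). Of all genes, 1.21% and 0.819% were called higher there. In liver lcat itself was 488 to 1047 CPM, and the part of those markers was not tested. In liver insig1, a brake on cholesterol synthesis, rose by 2.14, 1.33 and 1.70 at T2, T3 and T4 (adjusted p 0.00293, 0.0315 and 0.00240), and soat2, a cholesterol-esterifying enzyme, fell by 1.54 at T2 and 1.49 at T4 (adjusted p 0.0452 and 0.0108). These are 2 of 11, 1 of 11 and 2 of 11 in liver, near the share of all genes (15%, 7.65% and 11.3%). The T3 call of insig1 held in 3 of 8 leave-one-out fits and not with limma. The T2 call of soat2 held in 1 of 8 and not with the block, and its T4 call was lost with T4 replicates 1 and 2 left out together and in the fit of all 16 livers. No gene of the list was called in brain.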

How the data were processed

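Each of 64 libraries was 1 tissue of 1 fish, grouped by tissue and time point from the labels. Per the submitters' notes and the study's methods, the authors aligned TruSeq reads from an Illumina NovaSeq to ICSASG_v2 with TopHat2 2.1.1 and counted uniquely placed reads per gene on the reverse strand with HTSeq 0.7.2, with SAMtools 1.4 also named. They deposited raw counts (81574 rows, 33025 of them at 0 in all libraries) and log2 values. The deposited log2 values of 46064 rows equalled log2(CPM + 1) of those counts within 3.71e-05, though the methods speak of FPKM. Symbols came from the RefSeq annotation by gene number, which held 39692 of the log2 rows (86.2%), LOC symbols included. Genes with LOC numbers have no name or role here.

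CPM were counts over library totals. Each later group was tested against T1 within its tissue with edgeR 4.0.16 (quasi-likelihood, TMM scaling, low counts filtered, R 4.3.3), with Benjamini-Hochberg adjustment over all genes tested, and calls needed an adjusted p below 0.05 and a log2 fold change beyond 1 in either direction. Each SE was derived from the test, as the absolute log2 fold change over the square root of the quasi-likelihood F statistic. In ovary the SE of apoeb comes from the same fit and nothing is tested with it. Approximate 95% intervals of apoeb took the SE with 6 residual degrees of freedom and need not match the test's p. Alternatives were DESeq2 1.42.0 size factors and test, edgeR's exact test, limma 3.58.1 on the deposited log2 values, no filter, 1 fit for all times of a tissue, the replicate block, and leaving out each library. The fits were tested on simulated data. The gene, the lists and the tests were chosen with earlier results of these data known. The text names apoeb, the genes most like it over 64 and over 16 ovary libraries, its neighbours, and called members of the lists, with other names said to be picked after their values were seen. Lists were matched by exact symbol, with 10 of 27 receptors and 13 of 35 cholesterol symbols found. The 14 apolipoproteins were drawn from the symbols present, so any family member with only a LOC number is missing. No pair of libraries within a group agreed within sampling noise (chi-square per degree of freedom 11.6 to 572 in 96 pairs). Depth was 17.5 to 51.9 M counts per library, with 41 to 60990 of them apoeb, and errors are SDs over fish.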

Additional observations from a re-analysis of the deposited data

Results flagged for a closer look

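Liver T2 replicate 3, at 132 CPM of apoeb, stood apart from the other 3 livers of T2: its gap to the nearest of them was 0.945 of the group's range, above Dixon's limit for 4 samples. It was the only such group of 16, and chance gives about 1 in 20.

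The apoeb log2 fold changes over T1 had opposite signs in some pairs of tissues, with all 4 later libraries on one side of the T1 mean in one tissue and on the other side in the other. The difference was -1.83 for pituitary minus liver at T2, 6.77 for ovary minus pituitary at T3, -1.36 for pituitary minus liver at T3, 8.67 for ovary minus pituitary at T4 and 9.06 for ovary minus liver at T4. Within liver it was -1.96 for T4 minus T2 and -1.81 for T4 minus T3, values that share the T1 libraries. None of these differences was tested.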

How the results depend on the processing

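Over the alternatives, the apoeb log2 fold change over T1 kept its sign in ovary, pituitary and liver. Leaving out 1 library, it ranged from 0.26 to 0.87, 5.60 to 6.62 and 7.05 to 8.45 in ovary at T2, T3 and T4, from -0.96 to -0.73, -0.66 to -0.41 and -0.70 to -0.47 in pituitary, and from 0.15 to 1.21, 0.59 to 0.99 and -1.44 to -0.80 in liver. In brain it turned sign at T3 with limma (-0.029) and over left-out libraries (-0.79 to 0.77), and at T4 with limma (-0.19) and over left-out libraries (-1.07 to 0.88). The liver T4 difference was called with DESeq2 (-1.03) and the exact test (-1.01). The choices added after the data were seen gave -0.51 without T4 replicates 1 and 2 and -1.03 with the T4 counts summed in pairs. The liver means moved with scaling over 64 libraries, to 60.8 (TMM) and 61.2 (DESeq2 size factors) CPM at T1, 114 and 112 at T2, 108 and 103 at T3, and 29.2 and 28.4 at T4, and the other 12 group means moved by less than 1 SD. The cause was not tested.

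Same-numbered libraries of different times come from different fish, and their correlations were not all above 0.1 in any comparison, so the numbers did not pair them. The replicate block therefore matched no fish and left fewer residual degrees of freedom. A call lost with it, here or above, may reflect that alone. With the replicate block, ovary T3 was 4.39, ovary T4 6.58, liver T4 -1.13 (adjusted p 0.0596, edgeR), and genes called fell to 25 in ovary T2 (301 without it), 1 in ovary T3 (1121) and 76 in pituitary T3 (339). Genes called over all alternatives other than left-out libraries ranged from 1 to 2129 in ovary T3, 1132 to 4412 in ovary T4, 239 to 922 in pituitary T2, 329 to 1059 in pituitary T4, 2443 to 4217 in liver T2, 995 to 2360 in liver T3 and 1526 to 3877 in liver T4. With 4 fish a group and wide gaps within groups, the T3 and T4 means of ovary and brain are imprecise.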
